A study of Mus musculus with 24 samples.

Results

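The 12 mouse mammary tumours labelled WT, out of 24 tumours in the series, were compared with one another to find which genes and gene programmes differed between tumours of a single labelled group. They were chosen by title alone, as the libraries WT_13 to WT_24, and no measured value entered the choice. All 24 tumours carried the MMTV-PyMT transgene, in which the mouse mammary tumour virus promoter drives the polyoma middle T oncoprotein in mammary epithelium. The 12 tumours studied here were labelled SHP WT, from a line described as NR0B2+/+ PyMT+, and the other 12 were labelled SHP KO, from NR0B2-/- PyMT+ animals. Nr0b2 encodes SHP, a nuclear receptor without a DNA-binding domain that represses other nuclear receptors. Each tumour was taken at a volume of 2000 mm3, frozen and homogenised whole, and its polyadenylated RNA was sequenced. Age, strain, mammary gland position and hormonal stage were not given in the sources used here, nor whether the 12 tumours came from separate mice, so the spread described is that between tumour samples.

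The labels did not match the reads of the targeted gene. Nr0b2 had 1 read in all 12 WT-labelled libraries together, with 11 libraries at 0, while the 12 KO-labelled libraries held 182 reads, 3 to 71 in each and none at 0. The deposited table does not say which part of Nr0b2 was deleted, so these reads do not settle the genotype, and both groups are named by their labels throughout. The 12 WT-labelled libraries held 21685477 to 38022182 counted reads, at which 3 reads correspond to 0.0789 to 0.138 normalised CPM, the number of reads scaled to a common library total. No 2 of them agreed within sampling noise, since chi-square per degree of freedom was at least 32.3 over their 66 pairs. WT_23 stood apart from the rest, at -85.0 on a first principal component that held 28.1% of the variance, where the other 11 libraries lay between -17.2 and 42.2. The correlations that passed the test below are therefore given with and without WT_23, as are some counts of variable genes. Ranges and correlations within gene lists, and the clusters of genes, use all 12 libraries.

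PyMT tumours grow from luminal epithelium inside the mammary fat pad. In the normal gland, luminal cells comprise hormone-sensing cells, which carry the oestrogen and progesterone receptors, and alveolar cells, which make milk. Contractile myoepithelial cells surround them, and adipocytes, fibroblasts, vessels and immune cells fill the tissue between. A whole piece of tumour contains some of each, so in these bulk libraries fewer cells of a type and less RNA per cell cannot be told apart.

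Of 14109 genes with at least 1 CPM in 6 or more of the 12 libraries, 1926 (13.7%) had a variance of log2 CPM at least 4 times the trend for genes of the same mean level, and these are called variable below. The excess of a gene is the log2 ratio of its variance to that trend, so that an excess of 2 marks the threshold and a typical gene lies near 0. The median gene had a standard deviation (SD) of 0.282 log2 units over the 12 tumours. Among the genes nearest the threshold were H1f2 and Cd55 inside it and Cd164 outside it, all at an excess of 2 after rounding. Protein-coding genes made up 1864 of the variable genes and long noncoding RNAs 43. Leaving out each library in turn kept 1231 of the 1926 variable in all 12 repeats, while 518 dropped below the threshold without the library in which they were highest. WT_13 was the highest library for 380 variable genes and WT_23 for 370, and WT_23 was the lowest for 602.

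**Figure D1:**
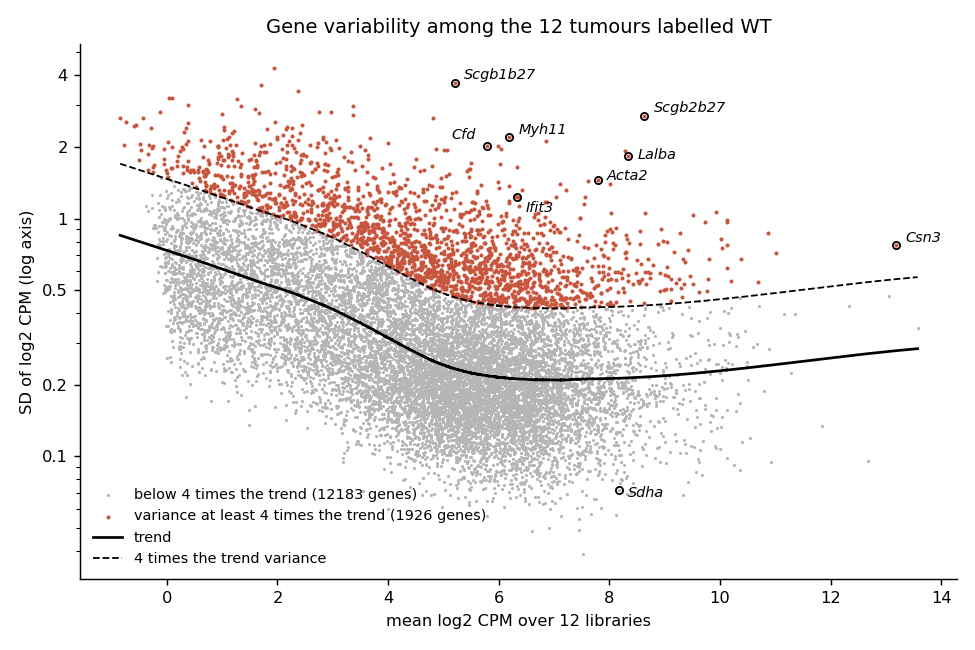
Each point is 1 of 14109 genes, placed by its mean log2 CPM and the SD of its log2 CPM (log axis) over the 12 WT-labelled tumours, with the fitted trend as a solid line and 4 times the trend variance as a dashed line. The 1926 genes above the dashed line are coloured; Scgb1b27, Scgb2b27 and Myh11 lie far above it, and Sdha lies below the trend.

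The 25 genes with the largest excess fell mostly into secreted and secretory-cell products (Scgb1b27, Scgb2b27, Scgb2b26, Car6, Lalba, Csn1s1, Dmbt1, Apod), contractile and basal-cell genes (Myh11, Cnn1, Mylk, Acta2, Krt5), adipocyte genes (Cfd, Car3, Fabp4) and skeletal muscle genes (Myh4, Acta1). The others were 2310057J18Rik, the transcription factor Tfap2b, the calcium pump Atp2a3, the fibrinogen chain Fgb, the GABA receptor subunit Gabra4, Dkkl1 and the complement factor C4b. Scgb1b27 led with an excess of 7.99. It encodes a secretoglobin, a small secreted protein of the androgen-binding-protein family, at GRCm39 chromosome 7, 33720906 to 33722306, plus strand. Its level ran from 0 in WT_23 through a median of 69.6 to 2156 CPM in WT_19. Scgb2b27, which lies beside it at 33711344 to 33713367 on the minus strand, ran from 5.10 CPM in WT_23 through 612 to 5573 in WT_19. Scgb2b26 was also highest in WT_19, at 216 CPM, and was at 0 in WT_23. These secretoglobins belong to a cluster of near-identical copies, and reads shared between copies were not counted, so how the signal divides among them is uncertain. Myh11, the smooth muscle myosin heavy chain (chromosome 16, 14012391 to 14110052, minus strand), ran from 4.26 in WT_23 through 53.2 to 833 CPM in WT_18.

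Gene lists for cell types and pathways showed which programmes these genes belonged to. Skeletal muscle, adipocyte and basal-myoepithelial genes spanned the widest ranges of list mean between tumours, at 6.24, 5.21 and 3.56 log2 units, among lists with at least 5 measured members. WT_23 set the lower end of the adipocyte range, at -3.01, with WT_21 next at -1.89. At the other end, 0 of 15 oxidative phosphorylation genes and 0 of 15 cytosolic ribosomal protein genes were variable, with median excesses of -1.23 and -1.28. Of the general luminal epithelial markers 2 of 14 were variable, near the 13.7% of all genes. Their median excess of 0.55 lay above that of all genes, -0.08. Epcam, the epithelial adhesion molecule, ran from 814 CPM in WT_18 to 1330 in WT_17.

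**Figure D2:**
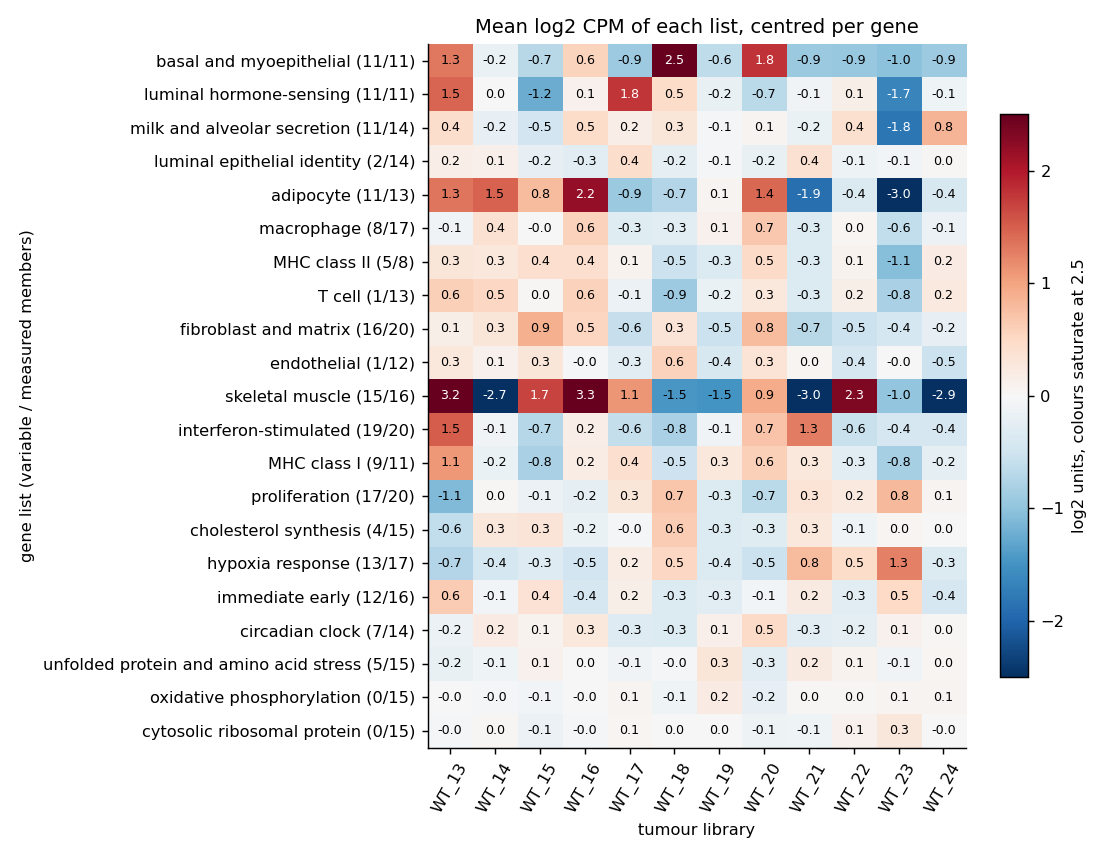
Rows are gene lists with their variable and measured members, columns are the 12 tumours, and each cell is the mean log2 CPM of the list after centring each gene on its mean over the tumours. WT_18 was highest for basal and myoepithelial genes (2.54), WT_17 for hormone-sensing genes (1.78) and WT_23 lowest for adipocyte genes (-3.01), while the bottom rows stay near 0.

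Myoepithelial and basal genes were the most variable epithelial programme, with 11 of 11 measured members variable, a median excess of 5.21 and a mean pairwise correlation of 0.605. This signal was highest in 3 tumours, WT_18, WT_20 and WT_13, with list means of 2.54, 1.80 and 1.32 against 0.55 or less in the others. Acta2, the smooth muscle actin of contractile cells, stood at 1582 CPM in WT_18, 765 in WT_20, 677 in WT_13 and 408 in WT_16, and between 81.9 and 211 in the remaining 8. Krt5, a basal-cell keratin, was at 387 CPM in WT_18, 193 in WT_13 and 116 in WT_20, against 8.11 to 55.6 elsewhere. The oxytocin receptor Oxtr, through which myoepithelial cells respond to suckling, followed with 273 CPM in WT_18 and 186 in WT_20 against 14.5 in WT_23.

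The basal keratins did not all follow the contractile genes. Krt14 was highest in WT_23 at 190 CPM, above 145 in WT_20 and 132 in WT_18, and was at 26.9 in WT_13. Krt17 likewise reached 224 CPM in WT_23 against 94.5 in WT_18, 74.9 in WT_20 and 4.84 to 51.4 in the others. In the same WT_23 library Myh11 and Cnn1, a regulator of smooth muscle contraction, were both at 4.26 CPM, the lowest of all 12. WT_23 thus had the highest Krt14 and Krt17 and the lowest Myh11 and Cnn1. Trp63, the transcription factor of basal cells, was intermediate there at 33.2 CPM within a range of 18.3 to 87.2. Tagln, a further contractile gene, did not pass the filter and reached 0.597 CPM at most. Its annotated interval overlaps that of Pcsk7 on the opposite strand, and the counting, which did not use strand, leaves out reads that fall on both. Whether this lowered the Tagln counts was not tested.

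Hormone-sensing genes were variable in 11 of 11 measured members, with a median excess of 4.10, and WT_17 and WT_13 stood above the rest. Esr1, the oestrogen receptor, was at 60.5 CPM in WT_13 and 50.3 in WT_17, while the other 10 tumours lay between 9.83 and 24.3. Prlr, the prolactin receptor, separated the same pair, with 868 and 639 CPM against 79.2 to 302. Foxa1, the pioneer factor that opens chromatin for the oestrogen receptor, was at 169 and 147 CPM against 10.2 to 67.0.

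Within that pair, the local growth signals of hormone-sensing cells were highest in WT_17. Wnt4, a ligand that progesterone induces in these cells, was at 152 CPM in WT_17, 55.5 in WT_13 and 1.18 to 17.5 in the others. Areg, the amphiregulin ligand of the EGF receptor, was at 192 CPM in WT_17 against 1.29 to 26.0 elsewhere. Cited1, a coactivator of the oestrogen receptor, was at 162 CPM in WT_17 and 0.734 to 42.2 in the other 11. A further list member, Tnfsf11, which encodes the RANK ligand, was named after its values were seen, because it did not pass the filter. It stood at 203 CPM in WT_17, 5.89 in WT_22 and 0.417 or less in the other 10. The genes closest to Esr1 over the 12 tumours were Irf1, Dipk1a, Scnn1g, Zbtb8a and Mycl, at r of 0.912 to 0.948, and 3 of the 10 other list members were among the 50 closest genes.

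Milk genes varied strongly but not together: 11 of 14 were variable with a median excess of 3.33, yet their mean pairwise correlation was 0.223. Csn3, the kappa-casein that stabilises milk micelles, was abundant everywhere, from 3525 CPM in WT_23 through a median of 9580 to 22406 in WT_21. Lalba, the alpha-lactalbumin subunit of lactose synthase, peaked in WT_14 at 1785 CPM and was lowest in WT_23, at 10.3 CPM. Csn1s1, an alpha-casein, had another order, with 319 CPM in WT_24, 252 in WT_22 and 179 in WT_23 but 10.8 in WT_20 and 11.6 in WT_13. Csn2, the beta-casein, was at 74.7 CPM in WT_17 against 0 to 5.04 in the other 11. Btn1a1, needed for release of milk fat droplets, was instead highest in WT_13, at 803 CPM against 20.1 to 123. Elf5, the transcription factor of alveolar cells, was steadier, at 255 to 513 CPM with an excess of 1.2. The total of the 16 listed milk genes therefore mostly followed Csn3, from 4578 CPM in WT_23 to 24388 in WT_21.

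Other variable genes clustered with a secretoglobin. In the clustering of variable genes by their correlation, described below, Scgb2b27 fell in a group of 228 genes that also held 4 unfolded-protein-response genes, among them Xbp1 and Herpud1. Xbp1, a transcription factor that enlarges the secretory apparatus, was at 2690 CPM in WT_19 and 2498 in WT_24, against 464 in WT_23 and 993 to 1862 in the others. Atp2a3, a calcium pump of the endoplasmic reticulum, had 1801 CPM in WT_19, 1393 in WT_24, 1111 in WT_21 and 17.5 in WT_23. Car6, a gene of another group and a secreted carbonic anhydrase, was at 979 CPM in WT_19 and 835 in WT_13 against 3.75 to 356 in the rest. Among the 9 listed salivary gland genes, which include secreted products, only Amy1 and Prol1 passed the filter. Pip, named after its values were seen, was at 699 CPM in WT_19 and at 5.41 or less in the other 11.

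**Figure D3:**
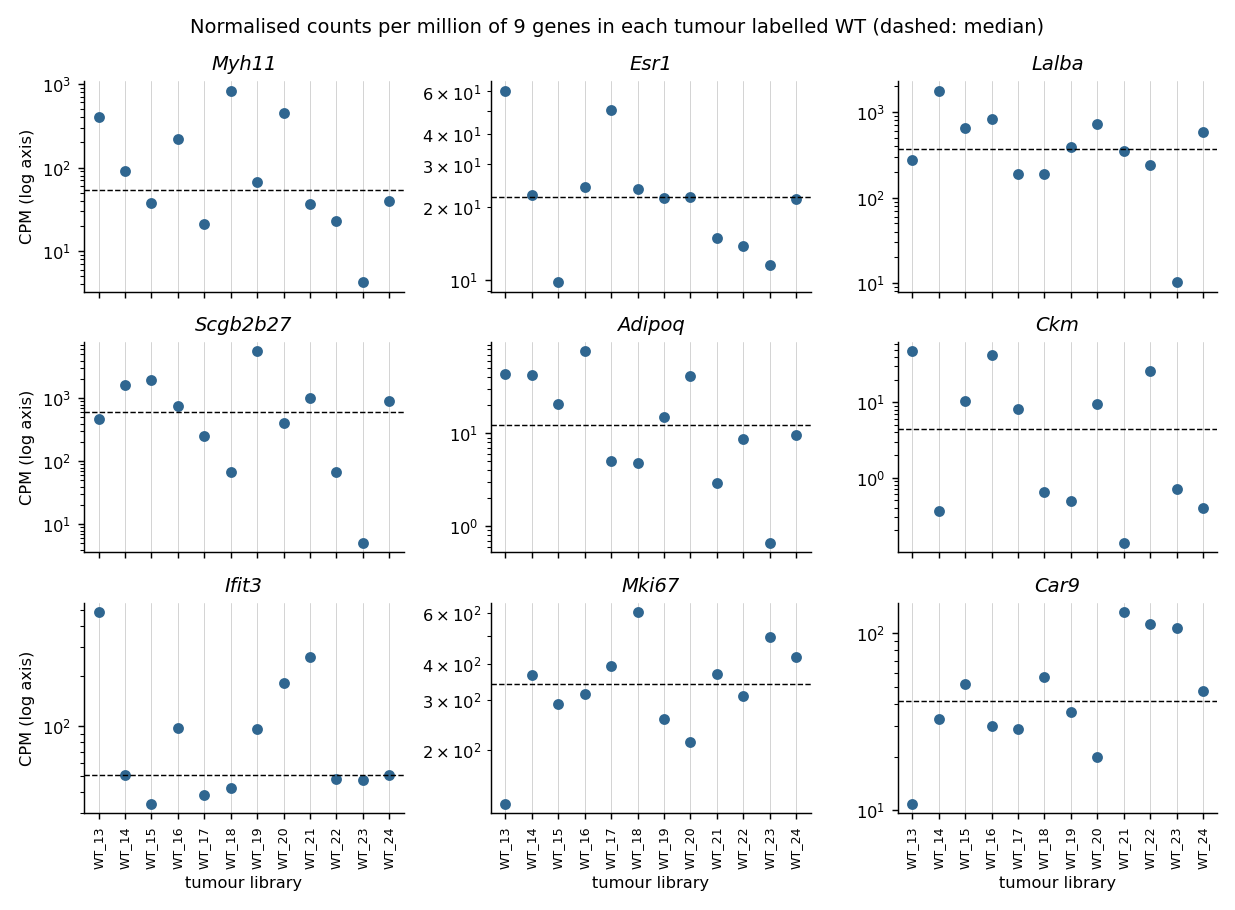
Normalised CPM (log axis, a different scale in each panel) of 9 genes in each of the 12 tumours, with the median dashed; library values of 0 are not present among these genes. Myh11 is highest in WT_18, Esr1 in WT_13 and WT_17, Scgb2b27 in WT_19, Adipoq in WT_16, Ifit3 in WT_13 and Car9 in WT_21, WT_22 and WT_23.

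Adipocyte genes gave a strongly shared programme, with 11 of 13 members variable, a median excess of 4.23 and a mean pairwise correlation of 0.762. Adipoq, the adipocyte hormone adiponectin (chromosome 16, 22965286 to 22976718, plus strand), was at 76.1 CPM in WT_16 and at 41.8 to 43.2 in WT_13, WT_14 and WT_20. It was at 15 to 20.6 in WT_15 and WT_19, at 2.95 to 9.57 in WT_17, WT_18, WT_21, WT_22 and WT_24, and at 0.661 in WT_23. The genes closest to Adipoq were Retn, Cfd, Car3, Plin1 and Adhfe1, at r of 0.983 to 0.993. Cfd, the serine protease adipsin, ran from 2.86 CPM in WT_23 through 68.6 to 321 in WT_16. The 2 members that were not variable were Pparg, the master regulator of adipocytes that other cells also express, and Cidea.

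Several immune markers were higher in tumours with more of the fat marker. Single genes taken from 25 programme lists gave 300 pairs. Of these, 6 passed a two-sided permutation test of Pearson's r after Benjamini-Hochberg adjustment (adjusted p under 0.05). Without adjustment 34 passed, and all 6 correlations were positive. A pair describes its own genes and not their lists. The 50 genes closest to Adipoq held 8 of 12 other adipocyte members, and those closest to H2-Aa held 4 of 7 class II members. For Cd3e the number was 3 of 12 T cell members, and for Adgre1 it was 1 of 16 macrophage members. Adipoq correlated with H2-Aa, an MHC class II chain of antigen-presenting cells, at r = 0.906 (permutation p = 0.00016, adjusted p = 0.021; rho = 0.874, permutation p = 0.00041). With Adgre1, the macrophage surface marker F4/80, its r was 0.895 (permutation p = 0.0001, adjusted p = 0.021; rho = 0.825, permutation p = 0.00179). With Cd3e, a chain of the T cell receptor complex, r was 0.875 (permutation p = 0.00021, adjusted p = 0.021; rho = 0.860, permutation p = 0.00085). The immune markers also correlated among themselves.

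H2-Aa correlated with Cd3e at r = 0.862 (permutation p = 0.00038, adjusted p = 0.0228; rho = 0.727, permutation p = 0.00968) and with Adgre1 at r = 0.856 (permutation p = 0.0003, adjusted p = 0.0225; rho = 0.839, permutation p = 0.00119). Adipoq, Cd3e and H2-Aa were all lowest in WT_23 and highest in WT_16. Adgre1 was lowest in WT_23 as well, at 19.1 CPM, and ran up to 56.2 in WT_16 and 60.5 in WT_20. Cd3e was scarce throughout, from 0.147 CPM in WT_23 through 1.06 to 2.35 in WT_16, so its value in the lowest libraries rests on few reads.

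These 5 relations leaned on single libraries. Without the 2 tumours farthest from the median of the first-named gene, r fell to 0.826 for Adgre1 and Adipoq, 0.826 for H2-Aa and Adipoq, 0.683 for Cd3e and Adipoq, 0.732 for Adgre1 and H2-Aa, and 0.634 for Cd3e and H2-Aa. Without WT_23 the same 5 values were 0.836, 0.830, 0.773, 0.771 and 0.712. No pair passed the adjusted threshold when WT_14, WT_16 or WT_23 was left out, or by Spearman's rho, where the lowest adjusted p was 0.119. The 14 listed adipocyte genes summed to 30 CPM in WT_23 and 1258.5 in WT_16. How much of the immune differences reflects how much fat pad was in the piece was not tested. Between Adipoq and Ckm, the muscle creatine kinase, r was 0.518 and did not pass (permutation p = 0.085, adjusted p = 0.506).

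**Figure D4:**
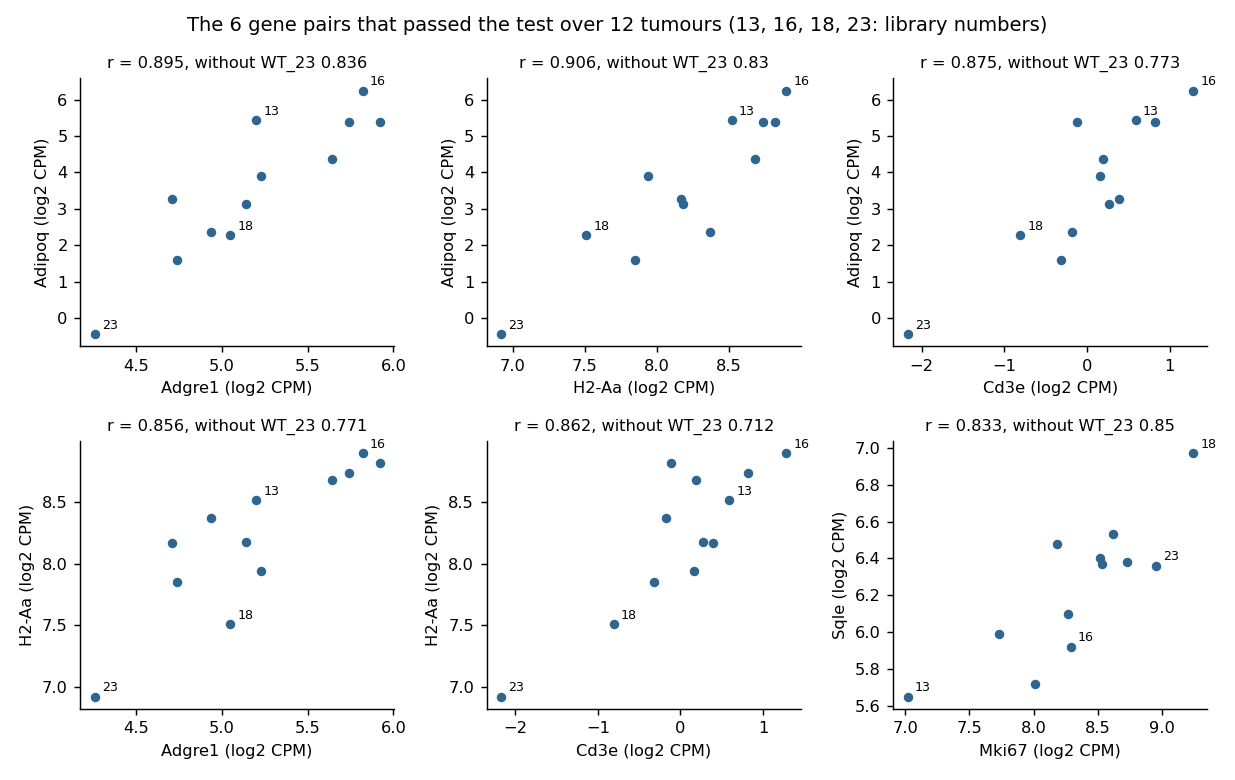
Log2 CPM of the 6 pairs of programme genes that passed the adjusted threshold, 1 point per tumour with 4 library numbers marked; r over 12 tumours and r without WT_23 stand above each panel. WT_23 lies at the lower left of the 5 panels that involve Adipoq, H2-Aa, Adgre1 or Cd3e, and WT_18 and WT_13 lie at opposite ends for Mki67 and Sqle.

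Macrophage genes were variable in 8 of 17 members, with a median excess of 1.93. Gpnmb, a glycoprotein of lipid-laden macrophages, was at 143 CPM in WT_14, 123 in WT_20, 109 in WT_19 and 80.5 in WT_16 against 6.28 to 58.3 elsewhere. In the clustering described below Gpnmb fell in the group of Scgb2b27 and Lalba, and not in that of Adgre1 and Csf1r. Spp1, the secreted phosphoprotein osteopontin that tumour cells also make, was highest in WT_21 at 3063 CPM and lowest in WT_15 at 275. MHC class II genes were variable in 5 of 8 members with all libraries and in 2 of 8 without WT_23. T cell markers were variable in 1 of 13 members, against 13.7% of all genes. That member, the transcription factor Tcf7, was highest at 62.5 CPM in WT_23, the library with the least Cd3e. Tcf7 was not variable without WT_23 (excess 1.45). Cytotoxic lymphocyte, neutrophil and dendritic cell lists had 0 of 7, 0 of 6 and 0 of 7 members variable, with many further members below the filter. Their median excesses of 1.46, 0.89 and 0.61 still lay above that of all genes, -0.08. The cytotoxic genes nevertheless moved together, with a mean pairwise correlation of 0.814 against 0.0665 for neutrophil and 0.284 for dendritic cell genes. Cytotoxic list means ran over 3.09 log2 units, from -1.57 in WT_23 to 1.53 in WT_13. These genes were scarce, and the highest value of any was 14.4 CPM, for Ccl5 in WT_13.

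A B cell signal was found in 1 tumour. Of 15 listed B and plasma cell genes, only Igkc, Ighm, Jchain and Cd22 passed the filter, and the first 3 were variable. Cd79a and Ms4a1, which encode surface proteins that define B cells and were named after their values were seen, stood at 5.91 and 7.98 CPM in WT_24. In the other 11 tumours they reached 0.316 and 0.184 CPM at most. Immunoglobulin genes did not all share that order. Ighm was also highest in WT_24, at 47.7 CPM, while Igkc was highest in WT_13, at 28.7. Jchain, the joining chain of secreted antibody, was at 17.4 CPM in WT_13 and at 6.67 in WT_24. It was at 12.4 in WT_14, 12.2 in WT_20 and 10.6 in WT_18. Ccl21a, the chemokine of lymphatic vessels and lymph nodes, was at 25.4 CPM in WT_20 and 5.53 or less elsewhere, and Mmrn1 followed it most closely, at r = 0.992. Of the lymph node list, Ccl19 was at 0 in 10 of 12 libraries and Madcam1 in 6.

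Skeletal muscle genes had the widest range among lists with at least 5 measured members, with 15 of 16 variable, a median excess of 4.43 and a mean pairwise correlation of 0.828. Ckm was at 47.5 CPM in WT_13, 42.7 in WT_16 and 25.8 in WT_22, and at 8.27 to 10.5 in WT_15, WT_17 and WT_20. The other 6 tumours lay at 0.136 to 0.698 CPM. Myh4, the fast myosin of limb and body wall muscle, was at 0 in WT_14, WT_21 and WT_24 and at 182 CPM in WT_16. The 18 muscle genes summed to 37.3 CPM in WT_24 and 880 in WT_16.

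Fibroblast and matrix genes were variable in 16 of 20 members, with a median excess of 3.22. Col1a1, a chain of type I collagen, was at 917 CPM in WT_15 and 540 in WT_20 against 184 to 431 in the other 10, and Col1a2 followed it at r = 0.986. Sparc, a matrix glycoprotein, had another order, with 1754 CPM in WT_13, 1331 in WT_20 and 1179 in WT_18 against 317 to 971. Fn1, fibronectin, was highest in WT_23 at 862 CPM, where Dcn, the fibroblast proteoglycan decorin, had its lowest value of 43.4. The receptors Pdgfra and Pdgfrb were not variable, with excesses of 1.5 and 1.4. Endothelial genes were variable in 1 of 12 members, against 13.7% of all genes, and in 0 to 2 with each library left out. Pecam1 ran from 17.3 CPM in WT_22 to 38.9 in WT_18. Between Pecam1 and a technical measure, the library's trend of level with gene length, r was 0.809. This did not pass adjustment (permutation p = 0.00174, adjusted p = 0.087 over 100 such relations). The part of that measure in the endothelial differences was not tested.

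Interferon-stimulated genes were variable in 19 of 20 members, with a median excess of 3.67 and a mean pairwise correlation of 0.868. Interferons act through a transcription factor complex that binds an element with paired GAAA repeats in the promoters of these genes. The promoter stretches below are shown because members that vary together could be searched for that element. Each is 50 bases from the RefSeq promoter table (GRCm38.p6, not the GRCm39 of the counts), read 5′ to 3′ on the gene's strand and upstream of its start. Capitals mark the interferon-stimulated response element, searched as a pair of GAAA with any 2 bases between, or its reverse complement, overlapping matches merged.
Ifit3, chr19:34583387-34583436, plus strand: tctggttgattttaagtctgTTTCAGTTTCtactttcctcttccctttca
Ifit1, chr19:34640784-34640833, plus strand: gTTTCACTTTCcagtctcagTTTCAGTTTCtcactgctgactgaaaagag
Isg15, chr4:156200855-156200904, minus strand: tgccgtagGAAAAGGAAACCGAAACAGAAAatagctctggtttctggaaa
Rsad2, chr12:26456543-26456592, minus strand: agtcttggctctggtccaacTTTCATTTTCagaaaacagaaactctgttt
Bst2, chr8:71537567-71537616, minus strand: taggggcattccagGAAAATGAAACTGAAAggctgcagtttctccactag
Searching 250 bases before to 50 after the start on both strands, 8 of the 14 members in the table (57.1%) held the element, against 3.99% of 27025 genes. A match describes these letters and does not show that a factor was bound in these tumours.

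WT_13, WT_21 and WT_20 stood above the other tumours for this programme, with list means of 1.51, 1.28 and 0.72 against 0.17 or less. Ifit3, an RNA-binding antiviral protein (GRCm39 chromosome 19, 34560519 to 34566382, plus strand), was at 485 CPM in WT_13, 262 in WT_21 and 181 in WT_20. In the other 9 it ran from 34.2 to 97.5 CPM. Its neighbour Ifit3b, a near-identical copy, followed at r = 0.993, a value that reads shared between the copies could affect. Rsad2, the antiviral enzyme viperin, was highest in WT_21 at 325 CPM, then 200 in WT_13 and 117 in WT_20, against 32.5 to 71.9 in the rest. Irf7, which amplifies interferon production, ran from 118 CPM in WT_18 through 242 to 726 in WT_13. Cxcl10, an interferon-induced chemokine, was the member that was not variable, at 1.94 to 10 CPM.

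MHC class I genes were highest in WT_13, as the interferon genes were, but ranked lower in WT_21. Of 11 members 9 were variable, with a median excess of 2.86 and a mean pairwise correlation of 0.871. H2-K1, a classical class I heavy chain, was at 2979 CPM in WT_13 and 2063 in WT_20, and at 1150 in WT_21, below 1574 in WT_17, 1487 in WT_19 and 1465 in WT_16. B2m, the shared light chain, gave 2604 CPM in WT_13, 1885 in WT_20 and 1291 in WT_21, against a lowest value of 496 in WT_15. Nlrc5, the transactivator of class I genes, correlated with H2-K1 at r = 0.980, and H2-D1, H2-Q4, B2m and Psmb8 were its other closest genes.

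Proliferation genes were the most uniform programme, with a mean pairwise correlation of 0.900 among 20 members, 17 of them variable and a median excess of 2.76. Mki67, the cell-cycle antigen, was at 604 CPM in WT_18, 494 in WT_23 and 424 in WT_24, through a median of 340, to 213 in WT_20 and 130 in WT_13. Top2a, the topoisomerase that untangles replicated DNA, ranged from 87.4 CPM in WT_13 to 419 in WT_23. The tumour highest for interferon genes was thus the lowest for proliferation genes. Over all 12 tumours Ifit3 and Mki67 gave r = -0.715, which did not pass adjustment (permutation p = 0.00875, adjusted p = 0.239).

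A cholesterol synthesis gene correlated with a proliferation gene over the 12 tumours, but the call was not stable. Sqle, the squalene epoxidase of that pathway, correlated with Mki67 at r = 0.833 (permutation p = 0.00078, adjusted p = 0.039; rho = 0.692, permutation p = 0.0155), and r was 0.850 without WT_23 and 0.658 without the 2 tumours farthest from the median of Mki67. The pair failed the adjusted threshold in both, with adjusted p of 0.218 and 0.532. With 1 library left out it failed in 11 of 12 repeats, passing only without WT_15 (permutation test, adjusted p = 0.0354). Sqle ran from 50.2 CPM in WT_13 through 82.5 to 125 in WT_18. The list had 4 of 15 members variable, a median excess of 1.69 and a mean pairwise correlation of 0.685. That count was 1 of 15 without WT_13, 2 without WT_18 and 9 without WT_23.

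Hypoxia-response genes were variable in 13 of 17 members, with a median excess of 2.94, and WT_23 and WT_21 had the highest list means, at 1.26 and 0.79. Vegfa, the vascular growth factor, was at 334 CPM in WT_23 and 177 in WT_21, then 116 to 128 in WT_17, WT_18 and WT_22, and 22.2 to 57.8 in the other 7. Car9, the membrane carbonic anhydrase induced by low oxygen, was at 131 CPM in WT_21, 113 in WT_22 and 107 in WT_23 against 10.9 to 56.9 in the other 9. Slc16a3, the lactate exporter MCT4, was at 56.1 CPM in WT_23 and 1.61 to 21.9 elsewhere. Pdk1 and Hk2 were not variable, with excesses of -0.17 and 0.82. Car9 was lower where Esr1 was higher, at r = -0.773, but this did not pass adjustment (permutation p = 0.00358, adjusted p = 0.153). The hypoxia-response-element core NACGTG lay in 14 of 16 member promoters (87.5%) against 21.7% of all genes in the table.

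Immediate early genes were variable in 12 of 16 members, with a median excess of 2.38 and a mean pairwise correlation of 0.253. Fos, a subunit of the AP-1 transcription factor, was at 180 CPM in WT_13, 129 in WT_21 and 119 in WT_15 against 53.3 to 79.9. Egr1, a zinc-finger factor of the same early response, was highest in WT_23 at 233 CPM and in WT_13 at 213, against 60.6 to 123.

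Circadian clock genes were variable in 7 of 14 members, with a mean pairwise correlation of 0.043. Dbp, an output gene of the clock, was at 10.8 to 16.4 CPM in WT_14, WT_15, WT_16, WT_19, WT_20 and WT_24 and at 2.31 to 7.34 in the other 6. Tef and Nr1d2 followed Dbp at r of 0.958 and 0.949, and 5 of the 13 other clock genes were among its 50 closest. Arntl, which encodes the activating partner of CLOCK, was highest in WT_21 at 39 CPM, where Dbp was at 3.13. CLOCK and its partner bind the E-box CACGTG, a palindrome, and 2 stretches that hold it are shown in the same form as above, with the E-box in capitals.
Per1, chr11:69098763-69098812, plus strand: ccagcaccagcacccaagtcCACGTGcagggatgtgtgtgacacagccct
Tef, chr15:81802526-81802575, plus strand: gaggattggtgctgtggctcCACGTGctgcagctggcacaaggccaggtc
The E-box lay in the promoters of 5 of 13 clock genes (38.5%), against 8.09% of all genes. The hour of collection was not given in the sources used here.

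Clustering the 1926 variable genes by their correlation over the 12 tumours gave 32 groups of at least 10 genes, holding 1770 of them. The largest, of 266 genes, held 9 basal-myoepithelial members, was led by Klhl29, Adgrb2, Htra1 and Mylk, and was highest in WT_13, WT_18 and WT_20. The next, of 228, held Scgb2b27 and Lalba and was lowest in WT_23. The third held 152 genes, with 17 proliferation and 9 hypoxia genes together, and was highest in WT_23 and lowest in WT_13. The fourth, of 132, joined 12 fibroblast, 11 adipocyte, 6 macrophage and 5 MHC class II genes, while the fifth, of 119, joined 19 interferon and 8 MHC class I genes. A group of 109 genes highest in WT_17 held 7 hormone-sensing members, and 35 genes formed the muscle group, with 15 listed members and no gene lost without its highest library. These groups were made from the same values, with WT_23 included, so they describe the variation and do not test it.

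Part of the shared variation followed whole chromosomes. The median centred log2 CPM of chromosome 11 genes ran over 0.387 units between tumours, that of chromosome 16 over 0.373, chromosome 17 over 0.342 and chromosome 7 over 0.271. The other 16 chromosomes, X included, ranged over 0.0444 to 0.110. The 1167 chromosome 11 genes had medians of 0.278 in WT_19, 0.207 in WT_23, 0.176 in WT_13 and 0.116 in WT_24, against -0.109 to 0.079 in the other 8. Chromosome 16 was raised in WT_22 (0.296) and WT_13 (0.241), chromosome 17 in WT_22 alone (0.302), and chromosome 7 in WT_24 (0.220) and WT_19 (0.164).

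Some of these shifts covered every window of the chromosome. In WT_13, WT_19 and WT_23 each of the 7 windows of 20 Mb on chromosome 11 had a median of at least 0.1. The same was true of 5 of 5 windows on chromosome 16 in WT_13 and WT_22, of 5 of 5 on chromosome 17 in WT_22 and of 8 of 8 on chromosome 7 in WT_24. Chromosome 11 in WT_24 reached that level in 5 of 7 windows and chromosome 7 in WT_19 in 6 of 8. In WT_21 the last 2 windows of chromosome 11 did so, with medians of 0.112 and 0.287, while the other 5 lay between -0.113 and -0.038. In WT_22, 81.0% of chromosome 17 genes lay above their own median over the 12 tumours, and the median gene there was at 1.23 times its median. Copy number was not measured. The shifts were small beside the programmes above, and chromosome 11 had 14.5% of its genes variable, near the 13.7% of all genes.

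Erbb2, the receptor tyrosine kinase gene (GRCm39 chromosome 11, 98303310 to 98328542, plus strand), was variable with an excess of 2.18, or 1.38 and not variable without WT_17. It stood at 204 CPM in WT_17, 140 in WT_13, 139 in WT_23, 116 in WT_24, 112 in WT_19 and 102 in WT_21, and at 75.1 to 86.0 in the other 6. The 5 tumours with the most Erbb2 were also those with the highest chromosome 11 medians, although WT_17, with the most Erbb2, had a chromosome median of 0.079. Ppp1r1b, its neighbour, was at 15.3 CPM in WT_13, 12.7 in WT_17 and 12.4 in WT_23, and at 1.77 in WT_16.

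**Figure D5:**
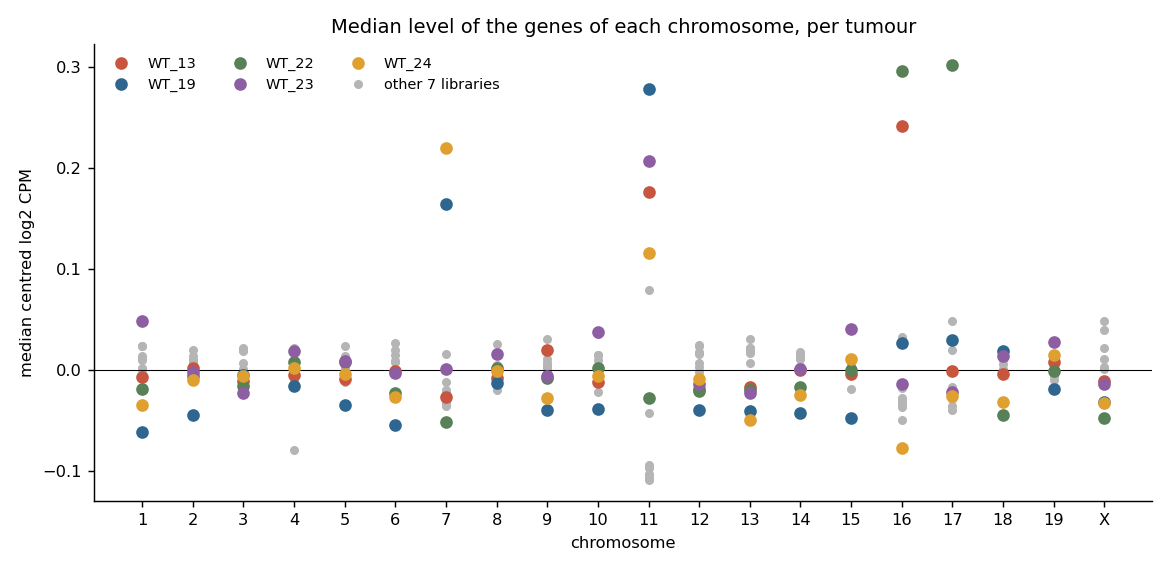
Each point is the median centred log2 CPM of the genes of 1 chromosome in 1 of the 12 tumours, with 5 tumours coloured. Chromosomes 7, 11, 16 and 17 have tumours above 0.16, while every point of the other 16 chromosomes stays within 0.11 of the lowest on its chromosome.

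Several single tumours carried their own genes. WT_13 had 925 CPM of Apod, a lipid-binding secreted protein, against 14 to 127 elsewhere. It also had 1300 CPM of Amtn, an enamel-matrix protein, against 0.551 to 29.6, and 449 CPM of Dmbt1, a secreted mucosal scavenger protein, against 3.89 to 151. WT_23 had the lowest Adipoq, Lalba, Csn3 and Myh11 values and the highest Krt14, Krt17, Vegfa and Fn1 values, and it had 510 CPM of Vim, the mesenchymal filament vimentin, against 116 to 438. The listed mesenchymal transition factors did not share 1 direction in WT_23. Zeb1, a repressor of epithelial genes, was lowest in WT_23, at 4.99 CPM, while Snai1 and Twist1 were highest there. The mean of that list was 0.305 in WT_23, within a range from -0.787 in WT_19 to 0.781 in WT_18. WT_17 had 160 CPM of Tph1, the serotonin-synthesis enzyme, against 0.355 to 45.6 elsewhere.

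The spread among WT-labelled tumours was then compared with that among KO-labelled tumours, using absolute deviations from each group's median in limma over 14738 genes. No gene passed at an adjusted p under 0.05 in either direction (0% and 0%), and the lowest adjusted p was 0.678. Without adjustment 327 genes (2.22%) were wider in WT and 171 (1.16%) in KO. Igf1r, the receptor of insulin-like growth factor 1, had the smallest p, at 6.72 to 21 CPM in WT and 8.70 to 12.8 in KO (limma p = 8.26e-05, adjusted p = 0.678). In the opposite direction Sh3glb1, a membrane-curvature protein, lay at 157 to 176 CPM in WT and 163 to 274 in KO (limma p = 9.2e-05, adjusted p = 0.678). All 11 basal-myoepithelial genes had the larger deviation in WT, with median SDs of 1.59 and 1.17, and none of these differences passed. Ribosomal protein genes had the larger deviation in KO in 15 of 15, with median SDs of 0.142 and 0.419. Over all 14738 genes, 48% had the larger deviation in WT. Members of both lists varied together over the WT-labelled tumours, with mean pairwise correlations of 0.605 and 0.61. Their counts are therefore not independent observations. The variation described for the WT-labelled tumours was therefore not shown to be particular to them.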

How the data were processed

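Tumour RNA was sequenced with a kit that keeps strand, per the labels' protocols. The authors deposited whole-number read counts per gene, made with featureCounts 2.0.0 on RefSeq GRCm39 genes without a strand setting and without multi-mapped reads, per the file headers. STAR and Subread are named in the submitters' processing notes, with versions not given in the sources used here. Libraries were grouped by label. Counts from 12 WT-labelled libraries were scaled by TMM (edgeR 4.0.16) to log2 CPM with a prior count of 2, and genes with 1 CPM or more in at least 6 libraries were kept. The trend was a robust loess of log2 variance on mean (span 0.5). Variable genes were clustered by average linkage on 1 minus r, at height 0.5. Correlations used 100000 permutations and 4 library measures. The groups' spread was compared with limma 3.58.1, with Benjamini-Hochberg adjustment and a threshold of 0.05. DESeq2 1.42.0 served as an alternative scaling and transformation. The ranking and the test of spread were checked on simulated counts, and the correlation test was not.

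The genes named were Nr0b2, the 25 with the largest excess, 1 gene per programme and its 5 closest genes, up to 4 of each list by excess, up to 6 leading genes of a group or component, the 10 smallest p-values each way for spread, and the genes at the threshold. Other list members were named to show a range or because they were not variable, after their values were seen. The members and lists were chosen with earlier results of these data known. Promoters came from RefSeq on GRCm38.p6; 14 of 20 interferon and 13 of 14 clock genes matched. Some genes that the rule names are not reported here.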

Additional observations from a re-analysis of the deposited data

How the results depend on the processing

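The count of variable genes, 1926 of 14109, stayed between 1708 and 2108 under other scalings, a prior count of 0.5, a filter of 1 CPM in all 12 libraries, variance-stabilised values, the median absolute deviation and a narrower trend span. It was 1893 to 1975 with each library left out. It was 2899 with no filter on low counts, 3839 at an excess of 1, 796 at an excess of 3 and 624 by edgeR's dispersion against its trend, the last all among the 1926. By that dispersion 4.42% of all genes, 0 of 20 proliferation genes and 11 of 11 basal-myoepithelial genes were called. Other counts fell as well, for MHC class II from 5 to 0, immediate early from 12 to 1 and macrophage from 8 to 2. Interferon-stimulated genes went from 19 to 13 and hormone-sensing genes from 11 to 8. The cause was not tested. The test of spread called 0 genes under every alternative run except with no filter, which called 15, and 0 with each library left out. Of the 300 correlations, 6 passed as reported, 0 by Spearman's rho, 1 without the 2 libraries farthest from the median, which was none of the 6, and 0 to 7 with each library left out, 0 of them without WT_14, WT_16 or WT_23; these alternatives use fewer libraries or ranks. None of the 6 changed sign in the alternatives run. No paired analysis was possible because the WT-labelled libraries are numbered 13 to 24 and the KO-labelled ones 1 to 12, with no shared number. Depth limits genes near 3 reads, which were 0.0789 to 0.138 CPM.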

Other observations

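Other gene groups also differed between tumours, and no test was made of them. Of 9 measured mesenchymal transition factors 7 were variable, and 4 without WT_18. Snai2, a repressor of epithelial genes that basal mammary cells also use, was at 27.9 CPM in WT_18, 23 in WT_13 and 13.6 in WT_20, against 2.63 to 9.20 in the other 9. Prrx1, a mesenchymal homeobox factor, was at 38.6 CPM in WT_13 and 38.4 in WT_18 against 6.03 to 21.5. The 3 tumours with the most Snai2 were also the 3 with the highest basal and myoepithelial list means.

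Of 7 measured squamous and hair genes 4 were variable. Krt6a, a keratin of activated keratinocytes, was at 19.5 CPM in WT_17, 12.8 in WT_20, 9.40 in WT_21, 8.44 in WT_13 and 6.96 in WT_18, and at 0.276 to 2.36 in the other 7. Sprr1a, a cornified envelope protein, was at 43.1 CPM in WT_13, 24.6 in WT_20 and 22.1 in WT_17, against 0.513 to 7.49. Lgr5, a Wnt-pathway receptor of stem cells, was at 41.5 CPM in WT_19 and 29.5 in WT_24 against 1.36 to 4.68 in the other 10. Those 2 tumours were also the ones with the raised chromosome 7 median. Atf4, the main factor of the amino acid stress response, was steady, at 136 to 195 CPM.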
